A study of Homo sapiens with 18 samples.

Results

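Small nucleolar RNA (snoRNA) genes were examined in RNA-seq of K562 cells, an established human leukaemia line, in which the gene B2M had been silenced. The members were the rows of the gene count table whose symbol starts with SNORA or SNORD and whose counts over the 9 RNA libraries sum to 10 or more. This rule kept 114 of 387 SNORA and SNORD rows, in a table of 55766 rows. Of these, 63 of 112 SNORA rows are box H/ACA snoRNAs and 51 of 275 SNORD rows are box C/D snoRNAs. Members were thus chosen by their summed counts, and those sums are given as a description only. At the threshold, 3 box H/ACA and 2 box C/D members had a sum of 10 or 11, and 6 box H/ACA and 4 box C/D rows were left out with 8 or 9.

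All cells were K562 with a B2M:tdTomato transgene, in which the red fluorescent protein tdTomato reports on B2M, the light chain of MHC class I. RNA was sequenced from 3 libraries each of untreated cells, cells silenced with TALE proteins and cells silenced with dCas9, and methylated DNA was captured and sequenced (MeDIP-seq) in 9 further libraries of the same groups. Both TALE proteins and dCas9 can be programmed to bind a chosen DNA site, here the B2M promoter. Per the labels, treated cells received a mix of plasmids for different repressors, with 1 µg of the plasmid for the D3A-based repressor, and the dCas9 treatment added 250 ng of a guide RNA plasmid. Whether the transgenic cells were a single clone, and how long after treatment they were collected, is not given in the sources used here. The labels number the replicates but do not say that they were separate cultures, so p-values measure only the spread between these libraries, which may be technical.

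SnoRNAs are short RNAs of the nucleolus that guide chemical changes on ribosomal RNA by base pairing. Box C/D snoRNAs carry a C box and a D box near their ends and guide 2′-O-methylation by fibrillarin, and box H/ACA snoRNAs end in an ACA motif and guide pseudouridylation by dyskerin. A few act in cutting of the ribosomal RNA precursor instead, among them U3 (the SNORD3 genes) and U17 (SNORA73). Most human snoRNAs are cut out of the introns of a host gene, while U3 and U13 (SNORD13) genes are transcribed on their own.

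Sequences of several members that carry many counts or showed small p-values are given first, because they show the class motifs and the copies between which counts could be divided. All were read 5′ to 3′ from GRCh37, the sequence of build hg19, on the strand of the gene in the GENCODE annotation. In the box C/D sequences, capitals mark the first TGATGA, which holds the core of the C box, and the last CTGA, the D box. SNORD3A was printed for its first 220 bases (chr17:19091329-19091548, plus strand), SNORD17 in full (chr20:17943353-17943589, minus strand) and SNORD104 in full (chr17:62223443-62223512, plus strand).
SNORD3A: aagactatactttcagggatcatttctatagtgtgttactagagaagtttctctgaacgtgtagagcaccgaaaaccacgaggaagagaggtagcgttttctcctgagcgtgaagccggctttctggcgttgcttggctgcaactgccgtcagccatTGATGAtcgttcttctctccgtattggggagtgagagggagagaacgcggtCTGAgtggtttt
SNORD17: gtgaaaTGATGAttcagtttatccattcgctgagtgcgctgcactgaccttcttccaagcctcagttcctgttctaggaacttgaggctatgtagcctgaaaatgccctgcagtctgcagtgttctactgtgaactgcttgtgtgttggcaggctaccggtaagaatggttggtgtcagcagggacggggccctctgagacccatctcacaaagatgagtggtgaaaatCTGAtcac
SNORD104: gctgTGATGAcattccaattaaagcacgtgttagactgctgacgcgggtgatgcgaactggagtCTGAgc

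In the box H/ACA sequences, capitals mark an ACA that lies within the last 8 bases. They are SNORA73B (chr1:28835071-28835274, plus strand), SNORA71A (chr20:37055952-37056085, minus strand), the pair of SNORA22 copies that are most alike (chr7:64526377-64526510 and chr7:65220513-65220646, plus strand) and 2 of the 3 SNORA76 loci (chr5:65257011-65257147 and chr16:75443230-75443364, both minus strand).
SNORA73B: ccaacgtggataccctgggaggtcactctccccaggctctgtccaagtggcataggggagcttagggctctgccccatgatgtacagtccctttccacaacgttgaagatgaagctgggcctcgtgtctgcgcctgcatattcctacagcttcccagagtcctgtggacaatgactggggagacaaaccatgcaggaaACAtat
SNORA71A: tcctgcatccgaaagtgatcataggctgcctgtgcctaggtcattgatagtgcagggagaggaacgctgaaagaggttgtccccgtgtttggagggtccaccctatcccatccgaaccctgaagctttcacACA
SNORA22 copy 2: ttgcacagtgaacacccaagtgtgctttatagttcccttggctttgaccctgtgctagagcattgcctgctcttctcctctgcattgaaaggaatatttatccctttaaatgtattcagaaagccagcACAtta
SNORA22 copy 3: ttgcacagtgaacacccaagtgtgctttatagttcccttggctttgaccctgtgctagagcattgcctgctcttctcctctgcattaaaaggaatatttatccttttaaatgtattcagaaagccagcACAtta
SNORA76 copy 1: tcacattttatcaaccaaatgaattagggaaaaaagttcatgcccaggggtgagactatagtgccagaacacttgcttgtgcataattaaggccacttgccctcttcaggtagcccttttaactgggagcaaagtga
SNORA76 copy 2: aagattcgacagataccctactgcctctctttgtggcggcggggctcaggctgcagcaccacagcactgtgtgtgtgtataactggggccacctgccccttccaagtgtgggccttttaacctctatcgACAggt

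Of the 114 members, 68 had a single annotated locus, 43 had several loci under 1 symbol and 3 (SNORD3D, SNORD62A and SNORD62B) had none. A count of a symbol with several loci cannot be ascribed to 1 of them. Loci were matched to the rows by symbol alone. The annotation behind the counts is not given, so the loci counted under a symbol, such as SNORA76, may differ from those printed. SNORA22 copies 2 and 3 were identical at 132 of 134 aligned bases (98.5%), whereas SNORA76 copies 1 and 2 shared 62.0% of bases and copy 1 has no ACA within its last 8 bases. The first 220 bases of SNORD3A matched those of SNORD3B-1, SNORD3B-2 and SNORD3C at 219 positions each (99.5%), so the division of counts among the U3 rows is uncertain.

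The motifs followed the classes among members with 1 locus. ACA lay within the last 8 bases of 28 of 30 box H/ACA members and of 6 of 38 box C/D members. TGATGA occurred in 31 of 38 box C/D members and in 0 of 30 box H/ACA members, and CTGA within the last 20 bases in 32 and in 4. In the stretches of equal length just upstream, ACA was found for 1 of 30 box H/ACA members, TGATGA for 2 of 38 and CTGA for 3 of 38 box C/D members. Only the gene's strand was searched, and TGATGA and CTGA can overlap as CTGATGA. Rows under 10 counts carried the motifs too, with ACA in 21 of 26 box H/ACA rows and TGATGA in 146 of 188 box C/D rows.

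The RNA libraries held 8460076 to 12050554 counts and the MeDIP libraries 2529729 to 4492751. The B2M row checked the labels, with 79, 48 and 54 counts in untreated replicates 1, 2 and 3, 3, 7 and 4 in TALE and 2, 3 and 3 in dCas9. All 12 markers fixed for K562 had a mean of 10 CPM or more, where CPM are counts scaled to a common library size that edgeR corrected by the trimmed mean of M values (TMM). Of the 10 markers of T cells, B cells, monocytes, epithelia and fibroblasts, none was at 0 over all libraries. The epithelial pair summed to 232.0 to 258.8 CPM in untreated, 234.3 to 296.5 in TALE and 260.2 to 271.8 in dCas9, so that dCas9 lay above untreated without overlap. The B cell pair summed to 0.124 to 1.33, 0.294 to 0.648 and 0.741 to 1.76 CPM in the same order, with TALE below dCas9 without overlap. The T cell, monocyte and fibroblast pairs overlapped between all groups, at 14.6 to 29.6 CPM (T cell and monocyte) and 4.82 to 10.1 CPM (fibroblast). Rows of mitochondrial genes (MT-) took 70147, 107525 and 105534 CPM in untreated, 56638, 37529 and 64119 in TALE and 62626, 149142 and 108087 in dCas9 replicates, so that TALE lay below untreated without overlap. RNA of a bulk culture cannot tell fewer cells with a snoRNA from less snoRNA per cell.

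Counts of box C/D members were dominated by SNORD3A, a gene for U3, which had 523628 of 534430 counts (98.0%). Its libraries held 6597, 6199.8 and 6329.5 CPM in untreated, 4340.1, 6122 and 6930.4 in TALE and 7625, 4429 and 2176 in dCas9 replicates. The 3 untreated libraries were close together, whereas dCas9 replicate 1 was the highest and replicate 3 the lowest of all 9, a 3.50-fold range. Next came SNORD15B with 2966 counts and SNORD17 with 2317. The other U3 rows were SNORD3D with 1038, SNORD3C with 719, SNORD3B-2 with 526 and SNORD3B-1 with 345 counts. SNORD13 (U13), a guide for acetylation of 18S ribosomal RNA, had 496 counts, from 4.08 to 7.04 CPM, with all 3 groups overlapping.

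The box H/ACA class was carried by a few genes as well, with 85.2% of its 39698 counts in 3 rows. SNORA73B (U17), which acts in processing of 18S ribosomal RNA, had 16287 counts (41.0%), SNORA22 had 14388 and SNORA76 had 3162. SNORA74, with 1202 counts over 7 loci and apart from the SNORA74A and SNORA74B rows, and SNORA71A, with 606, followed. Per kilobase of annotated length, mean levels were 894 CPM for SNORA73B, 222 for SNORD15B and 108 for SNORD17. SNORD3A stood at 8067, and its annotated row of 699 bases is longer than the printed stretch. SNORA22 and SNORA76 came to 1181 and 255, but these values divide the counts of several loci by the median length of a single locus. They therefore cannot be ranked against the single-locus rows. The median member had 41 counts over all libraries among box H/ACA and 30 among box C/D.

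Annotated length went with which rows had counts. All 7 box C/D rows with 1 locus and over 150 bases were members, whereas 16 of 100 rows of up to 80 bases and 9 of 105 rows of 81 to 100 bases were. The 7 included SNORD3A, SNORD3B-1, SNORD3B-2 and SNORD3C, which are near copies in their first 220 bases. The box C/D rows with 1 locus also include the imprinted SNORD113 to SNORD116 clusters, which were near empty and were not set apart. Of box H/ACA rows, 4 of 10 with 101 to 130 bases, 19 of 37 with 131 to 150 bases and 7 of 9 over 150 bases were members. The median length of members was 89.5 bases in box C/D and 135 in box H/ACA. The lowest length in the box H/ACA members, 123 bases, was above the median of box C/D members. Selection of RNA or cDNA by size is not given in the sources used here, and its part was not tested.

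**Figure D1:**
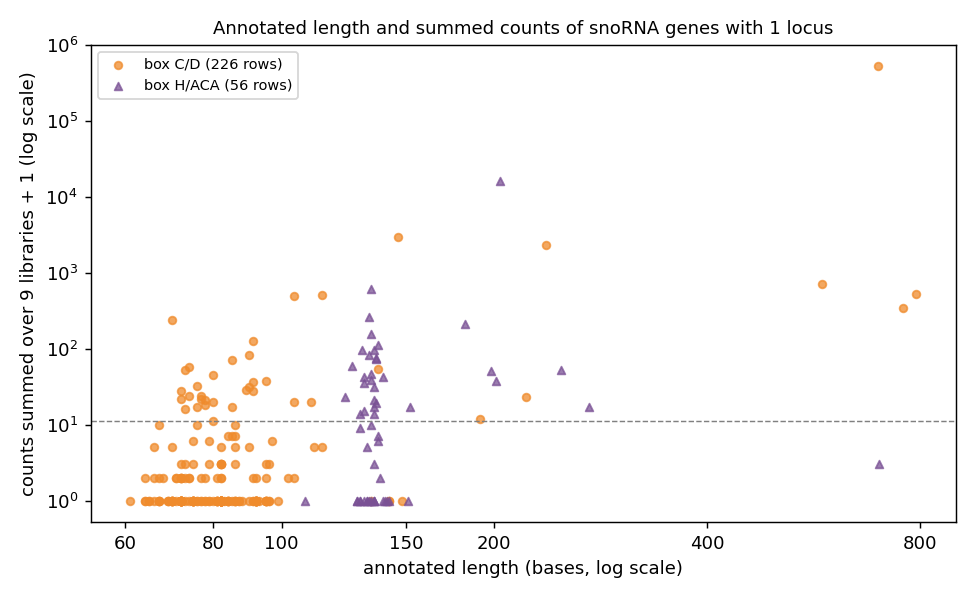
Annotated length (bases, log axis) against counts summed over the 9 RNA libraries plus 1 (log axis) for the snoRNA rows with 1 locus, circles for box C/D and triangles for box H/ACA. The dashed line is the member threshold of 10 counts, and all 7 box C/D rows over 150 bases lie above it.

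A position over an exon of another gene also went with low counts. Of 96 box C/D rows over such an exon, 78 (81.2%) had 0 counts, against 60 of 130 (46.2%) elsewhere, and in box H/ACA these were 11 of 18 (61.1%) against 7 of 38 (18.4%). SNORD118 (U8), needed for maturation of the large subunit's ribosomal RNA, had 0 counts in all 9 libraries and lies over an exon of TMEM107. The authors' rule for reads that fall on several features is not given in the sources used here, so these zeros are no measure of absence. The imprinted clusters were near empty, with 11 counts over the 10 SNORD113 rows, 6 over 30 SNORD114 rows, 12 over 45 SNORD115 rows and 7 over 27 SNORD116 rows. Some of these rows lie over exons of MEG8 or SNHG14 and others do not. They thus enter both box C/D shares above and were not set apart. In all, 153 SNORD and 26 SNORA rows had 0 counts.

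The groups were compared with edgeR's quasi-likelihood test on 13786 genes that passed a filter on low counts, which 25 box H/ACA and 14 box C/D members passed. The 75 members that were not tested had 10 to 81 counts each (box C/D) or 11 to 63 (box H/ACA) and were at 0 in 3 to 11 cases per class and library. A member was called at a Benjamini-Hochberg adjusted p under 0.05 over all 13786 genes. No member was called in any of the 3 comparisons, in which 0.0218% of genes (TALE against untreated), 0.029% (dCas9 against untreated) and 0.0% (TALE against dCas9) were called. The comparisons of TALE and of dCas9 with untreated share the untreated libraries.

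Summed over its 63 members, the box H/ACA class was highest in dCas9 cells. It stood at 243, 515 and 459 CPM in untreated, 321, 315 and 384 in TALE and 520.4, 585 and 612 in dCas9 replicates. All 3 dCas9 libraries lay above all untreated and all TALE libraries, and untreated replicate 1 was the lowest of the 9. The means were 406 ± 144 (SD, n = 3) in untreated, 340.0 ± 37.8 (SD, n = 3) in TALE and 573 ± 47.1 (SD, n = 3) in dCas9. The ratio of means was 1.41 for dCas9 over untreated, 0.838 for TALE over untreated and 0.594 for TALE over dCas9. Without untreated replicate 1 the log2 ratio of dCas9 to untreated was 0.23 instead of 0.50, and that of TALE to untreated -0.52 instead of -0.26. Without SNORA73B and SNORA22, the other 61 members summed to 89.7 ± 17.4 (SD, n = 3), 88.9 ± 18.5 (SD, n = 3) and 118 ± 4.20 (SD, n = 3) CPM in untreated, TALE and dCas9, and dCas9 still lay above both without overlap.

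The box C/D class did not separate the groups. It summed to 6691, 6336 and 6461 CPM in untreated, 4434, 6215 and 7058 in TALE and 7766, 4541 and 2313 in dCas9 replicates, which follows SNORD3A. Without SNORD3A the class held 93.6, 136 and 132 CPM in untreated, 94.4, 92.6 and 128 in TALE and 142, 112 and 137 in dCas9. All groups overlapped in both sums, and the log2 ratio of dCas9 to untreated was -0.41 with SNORD3A and 0.11 without it. That of TALE to dCas9 was 0.28 with SNORD3A and -0.31 without it. Small Cajal body RNAs (SCARNA rows), a related class, were lower in TALE than in dCas9 without overlap, at 167, 159 and 264 against 336, 270.1 and 277 CPM. Spliceosomal RNA rows (RNU) showed the same order, at 142, 126 and 173 against 202, 195 and 209 CPM. Untreated replicates held 213, 347 and 340 CPM in SCARNA rows and 143, 225 and 242 in RNU rows, overlapping both other groups. The ratio of means of dCas9 over untreated was 0.98 (SCARNA) and 0.992 (RNU), so neither sum was higher in dCas9. Row by row, 14 of 21 tested RNU rows were higher in dCas9 than in untreated, with a median log2 fold change of 0.12. At an unadjusted edgeR p under 0.05, 2 of these were higher and 0 lower, where 3.1% and 2.83% of all genes were. Of 13 tested SCARNA rows 7 were higher and 6 lower, with a median of 0.03. The part of the mitochondrial, SCARNA, RNU and marker levels in the box H/ACA difference was not tested.

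**Figure D2:**
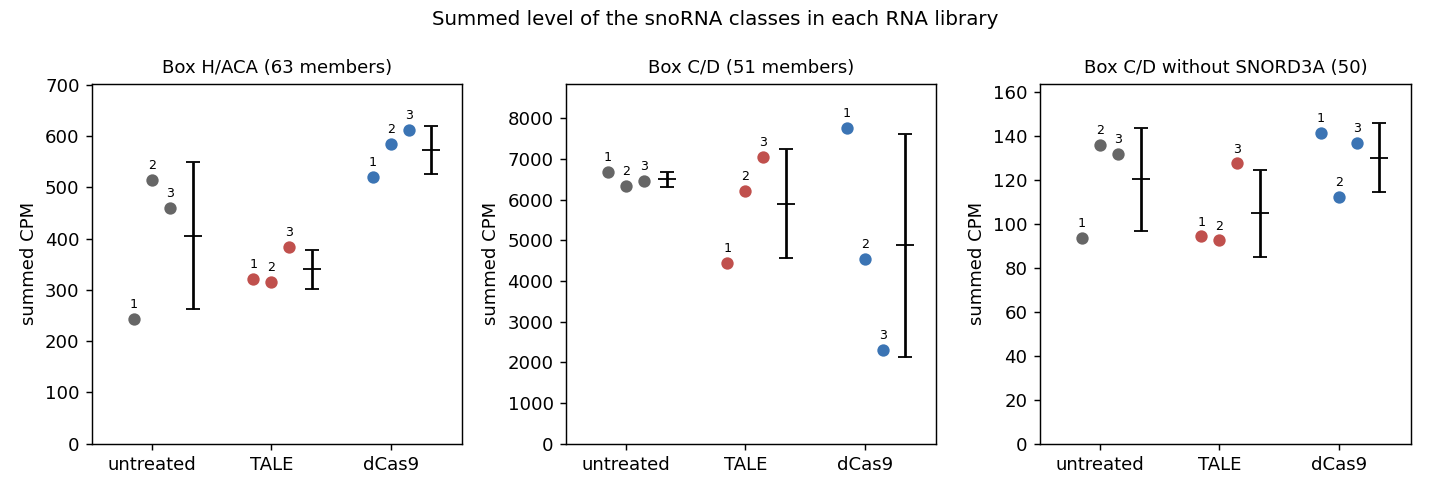
Summed CPM of the box H/ACA members, the box C/D members and the box C/D members without SNORD3A in each RNA library, numbered by replicate, with the mean and SD of each group in black. In the first panel the 3 dCas9 libraries lie above all others, and in the other panels the groups overlap.

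In dCas9 against untreated cells, box H/ACA members were mostly higher but none passed the test. Of 25 tested members 19 were higher and 6 lower, with a median log2 fold change of 0.33 against 0.00 over all genes. Of 14 box C/D members 11 were higher and 3 lower, with a median of 0.23. At an unadjusted p under 0.05, 3 box H/ACA and 1 box C/D members were higher and 1 box H/ACA member was lower, where 3.1% of all genes were higher and 2.83% lower. Groups did not overlap for 4 box H/ACA and 1 box C/D members, all higher, where 5.6% of genes were higher and 5.97% lower without overlap. DESeq2 called 1 member, SNORA76. Without the filter, over all 63 box H/ACA members 37 were higher with a median of 0.21, and over all 51 box C/D members 28 were higher with a median of 0.03. With untreated replicate 1 left out, only 14 of 25 tested box H/ACA and 8 of 15 tested box C/D members were higher. The medians were then 0.14 in box H/ACA and 0.11 in box C/D. Without dCas9 replicate 3 the box H/ACA median was 0.17, and without untreated replicate 2 the box C/D median was 0.41.

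SNORA76 had the smallest p of all members. It stood at 20.3, 30.8 and 21.4 CPM in untreated, 29.0, 25.0 and 44.6 in TALE and 40.2, 50.5 and 47.4 in dCas9 replicates. All dCas9 libraries lay above all untreated ones, while TALE overlapped both. The log2 fold change of dCas9 against untreated was 0.94 (SE 0.194, edgeR adjusted p 0.151), and that of TALE 0.45 (SE 0.195, edgeR adjusted p 0.655). It was called with DESeq2 (adjusted p 0.0124), with edgeR on the dCas9 and untreated libraries alone (0.0216), without the filter on low counts (0.0392) and without TALE replicate 3 (0.011).

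SNORA22, a box H/ACA gene with 4 loci, stood at 90.4, 141 and 160 CPM in untreated, 133, 134 and 101 in TALE and 185, 312 and 168 in dCas9 replicates. The dCas9 libraries lay above all others, and dCas9 replicate 2, the highest, was also the library with the most mitochondrial counts. Against untreated its log2 fold change came to 0.77 (SE 0.217, edgeR adjusted p 0.388).

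SNORA12, at 3 loci, held 2.71, 3.71 and 3.39 CPM in untreated and 6.02, 4.35 and 5.85 in dCas9, with a log2 fold change of 0.74 (SE 0.271, edgeR adjusted p 0.645). SNORA23, inside IPO7, did not overlap either, at 2.44, 1.98 and 1.94 CPM in untreated and 3.06, 2.80 and 2.58 in dCas9, with a log2 fold change of 0.39 (SE 0.316, edgeR adjusted p 0.962). Among the U3 rows, SNORD3B-1 held 2.44, 3.58 and 3.15 CPM in untreated and 3.71, 4.35 and 5.95 in dCas9, again without overlap (log2 fold change 0.62, SE 0.284, edgeR adjusted p 0.826). SNORA50 went the other way, with 0.96, 3.09 and 1.82 CPM in untreated and 1.30, 0.828 and 0.595 in dCas9. Its groups overlapped, and its log2 fold change of -1.04 (SE 0.47, edgeR adjusted p 0.819) rested on 113 counts in all. SNORD3A gave a log2 fold change of -0.43 (SE 0.312, edgeR adjusted p 0.959).

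**Figure D3:**
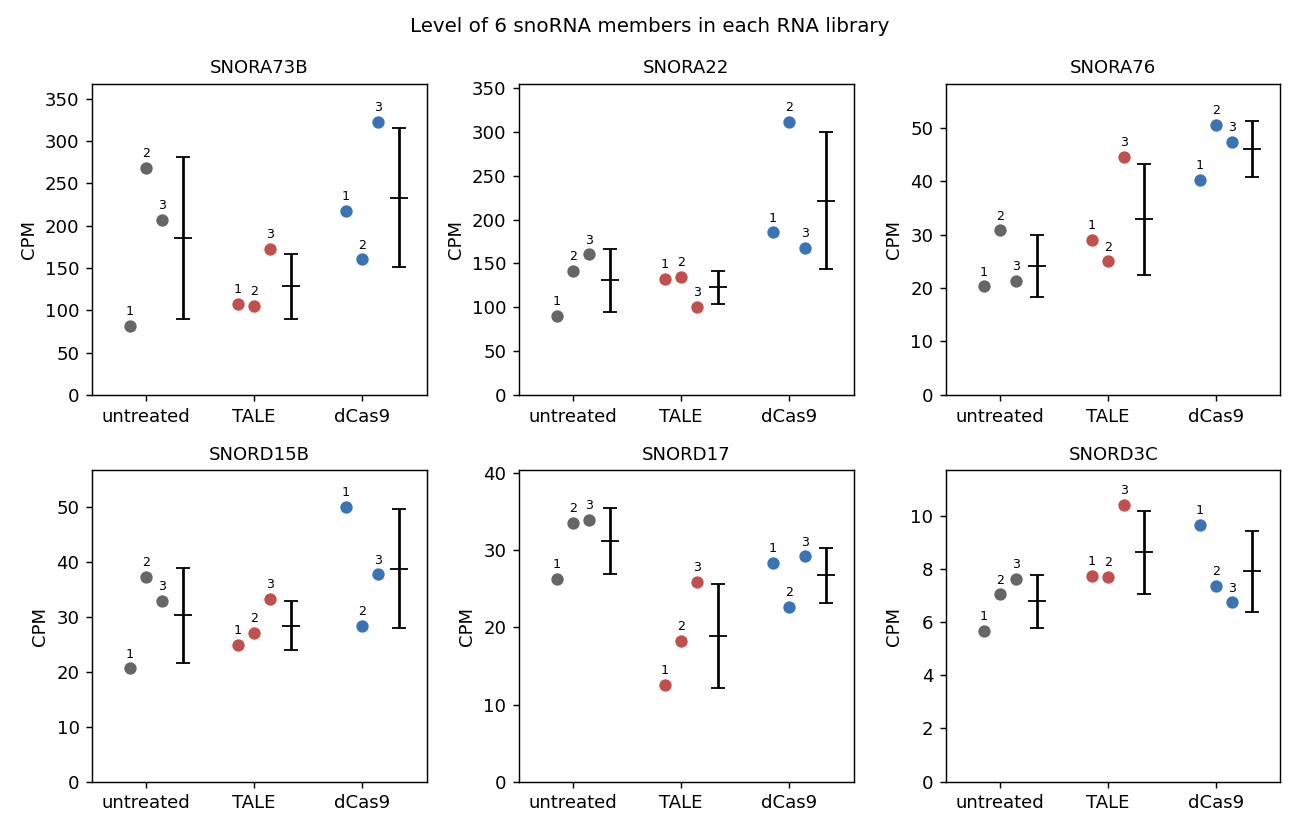
CPM of SNORA73B, SNORA22, SNORA76, SNORD15B, SNORD17 and SNORD3C in each RNA library, numbered by replicate, with the mean and SD of each group in black. The 3 dCas9 libraries lie above the untreated ones for SNORA22 and SNORA76, and the 3 TALE libraries lie below the untreated ones for SNORD17.

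In TALE against untreated cells the medians of the tested members lay close to 0. Of 25 box H/ACA members 12 were higher and 13 lower, with a median log2 fold change of -0.02, and of 14 box C/D members 5 were higher and 9 lower, with a median of -0.07. An unadjusted p under 0.05 was reached by 1 box H/ACA member that was higher (SNORA76) and 1 box C/D member that was lower (SNORD17), where 2.86% of genes were higher and 4.29% lower. Groups were apart for 0 box H/ACA and 2 box C/D members, SNORD3C higher and SNORD17 lower, where 6.09% of genes were higher and 6.44% lower without overlap. DESeq2 called 0 members. Without the filter, 24 of all 63 box H/ACA members were higher with a median of -0.22, and 17 of all 51 box C/D members with a median of -0.11, against -0.02 over all genes. With 1 library left out, the box H/ACA median ran from -0.22 (without untreated replicate 1) to 0.07 (without TALE replicate 2) and the box C/D median from -0.14 (without TALE replicate 3) to 0.09 (without untreated replicate 2), so the direction was not stable.

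SNORD17, a box C/D gene inside SNX5, was the member that lay lower. It stood at 26.3, 33.5 and 33.9 CPM in untreated, 12.5, 18.2 and 25.9 in TALE and 28.4, 22.7 and 29.2 in dCas9 replicates. Every TALE library was below every untreated one, with TALE replicate 3 close to untreated replicate 1. Its log2 fold change came to -0.72 (SE 0.197, edgeR adjusted p 0.400), and without TALE replicate 3 it was -1.0 (adjusted p 0.033), a call. SNORD3C held 5.67, 7.04 and 7.62 CPM in untreated and 7.74, 7.71 and 10.4 in TALE, a narrow gap with a log2 fold change of 0.35 (SE 0.206, edgeR adjusted p 0.768). SNORD15B, inside the ribosomal protein gene RPS3, differed little, at 20.6, 37.2 and 32.9 CPM in untreated and 24.8, 27.0 and 33.3 in TALE (log2 fold change -0.08, SE 0.208, edgeR adjusted p 0.963). SNORA50 was again the box H/ACA member with the smallest p on the lower side, at 1.18, 1.08 and 0.741 CPM in TALE (log2 fold change -0.91, SE 0.456, edgeR adjusted p 0.721).

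Between TALE and dCas9 cells most members were lower in TALE, and none passed the test. This held for 18 of 25 box H/ACA members (median log2 fold change -0.29) and 11 of 14 box C/D members (median -0.33), where the median of all genes was 0.00. At an unadjusted p under 0.05, 3 box H/ACA and 2 box C/D members were lower and 0 higher, where 3.79% of genes were lower and 2.6% higher. Groups were apart for 2 box H/ACA members, SNORA22 and SNORA65, both lower in TALE, where 4.5% of genes were lower and 4.88% higher without overlap. DESeq2 called 0 members. With 1 library left out, the box H/ACA median ran from -0.58 (without TALE replicate 3) to -0.17 (without dCas9 replicate 1) and the box C/D median from -0.43 (without dCas9 replicate 2) to -0.19 (without dCas9 replicate 3). It was -0.21 in box C/D without TALE replicate 2.

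SNORA22 had the smallest p here, with a log2 fold change of -0.86 (SE 0.217, edgeR adjusted p 0.511). SNORA73B held 81.4, 268 and 207 CPM in untreated, 108, 105 and 173 in TALE and 217, 160.2 and 323 in dCas9 replicates. Its TALE and dCas9 values overlapped by 1 library on each side, the untreated values spanned most of the range, and the log2 fold change came to -0.86 (SE 0.314, edgeR adjusted p 0.715). SNORD17 and SNORD15B gave -0.50 (SE 0.197) and -0.45 (SE 0.205) with edgeR adjusted p of 0.745 and 0.761, and both overlapped. SNORA65, inside the ribosomal protein gene RPL12, held 0.98, 0.617 and 0.926 CPM in TALE and 1.20, 1.76 and 1.39 in dCas9 (log2 fold change -0.79, SE 0.487, edgeR adjusted p 0.824). On the higher side SNORD3D (0.28, SE 0.208, edgeR adjusted p 0.858) and SNORA80 (0.35, SE 0.485, edgeR adjusted p 0.926) had the smallest p, and in both the groups overlapped.

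**Figure D4:**
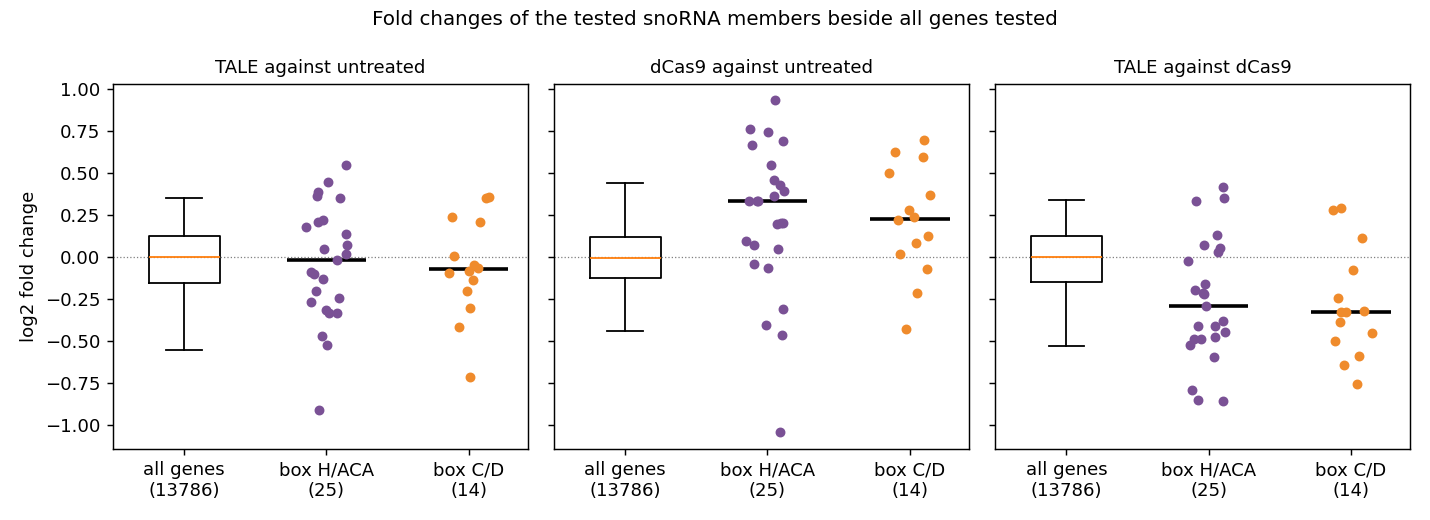
Log2 fold change (edgeR) in the 3 comparisons for all 13786 genes tested (box from the 25th to the 75th percentile, whiskers at the 5th and 95th) and for each of the 25 box H/ACA and 14 box C/D members tested, with black lines at the class medians. The class medians are 0.33 and 0.23 in dCas9 against untreated and -0.29 and -0.33 in TALE against dCas9.

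Steadiness over the 9 libraries differed among abundant members. Among the 20 most abundant of each class, the coefficient of variation was lowest for SNORA11 (14.6%) and SNORD3C (18.5%). SNORA11 ranged from 2.0 to 2.97 CPM, a 1.48-fold range, over all treatments. The most variable were SNORA50 (59.4%) and SNORD94 (62.6%), the latter inside PTCD3 with 53 counts in all and not tested. SNORD94 held 12 of its counts in untreated replicate 2 and 3 to 9 in each other library. SNORA73B (43.8%) and SNORA22 (41.1%) varied more than SNORD3A (29.9%), although all are among the deepest counted members.

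Host genes were compared with the snoRNAs in them. Members with 1 locus lay within a protein-coding gene in 24 of 30 box H/ACA and 26 of 38 box C/D cases, within a noncoding gene in 6 and 7, and in no host in 0 and 5. For the 14 tested members with a host (13 hosts, since SNORA71A and SNORA71C share SNHG17), host log2 fold changes ran from -0.15 to 0.38 in TALE against untreated and those of the snoRNAs from -0.72 to 0.55. The snoRNA's fold change was further from 0 than the host's in 12, 12 and 13 of 14 pairs in TALE against untreated, dCas9 against untreated and TALE against dCas9. The estimates for snoRNAs were less precise, with SEs of 0.194 to 0.538 against 0.11 to 0.177 for the hosts. Whether snoRNAs changed more than hosts beyond this wider scatter was not tested. A protein-coding gene was taken as host before a noncoding one, and the shortest if there were several. By this rule the snoRNA had a lower mean CPM than its host in each pair except SNORA73B, at 182.5 CPM against 69.2 for RCC1. SNORA73B also lies within the noncoding gene SNHG3, at 547.6 CPM. Signs were the same in 8, 5 and 10 pairs. None of the 46 tested hosts was called in any comparison by edgeR. At an unadjusted p under 0.05, 3 hosts were higher and 2 lower in TALE against untreated, where 2.86% and 4.29% of all genes were. In dCas9 against untreated 0 hosts reached that p, where 3.1% of genes were higher and 2.83% lower. In TALE against dCas9, 2 hosts were higher and 1 lower, where 2.6% and 3.79% of genes were.

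SNORA73B lies within 2 annotated genes, of which RCC1, a regulator of nuclear transport, had fold changes of the opposite sign in TALE cells and SNHG3 of the same sign. RCC1 had 796, 482 and 496 counts in untreated, 865, 1048 and 865 in TALE and 724, 604 and 586 in dCas9 replicates. Scaled to library size the TALE libraries lay above both other groups without overlap, with log2 fold changes of 0.38 (SE 0.11, edgeR adjusted p 0.484) against untreated and 0.39 (SE 0.11, edgeR adjusted p 0.53) against dCas9, where SNORA73B gave -0.53 and -0.86. The locus also lies within SNHG3, a noncoding host gene with a mean of 547.6 CPM, whose log2 fold changes had the sign of SNORA73B, at -0.36 (SE 0.198, edgeR adjusted p 0.749) and -0.26 (SE 0.198, edgeR adjusted p 0.867). SNX5, around SNORD17, had a log2 fold change of -0.08 (SE 0.11) in TALE against untreated, and RPS3 one of -0.12 (SE 0.164). SNORD17 also lies within the annotated span of OVOL2.

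**Figure D5:**
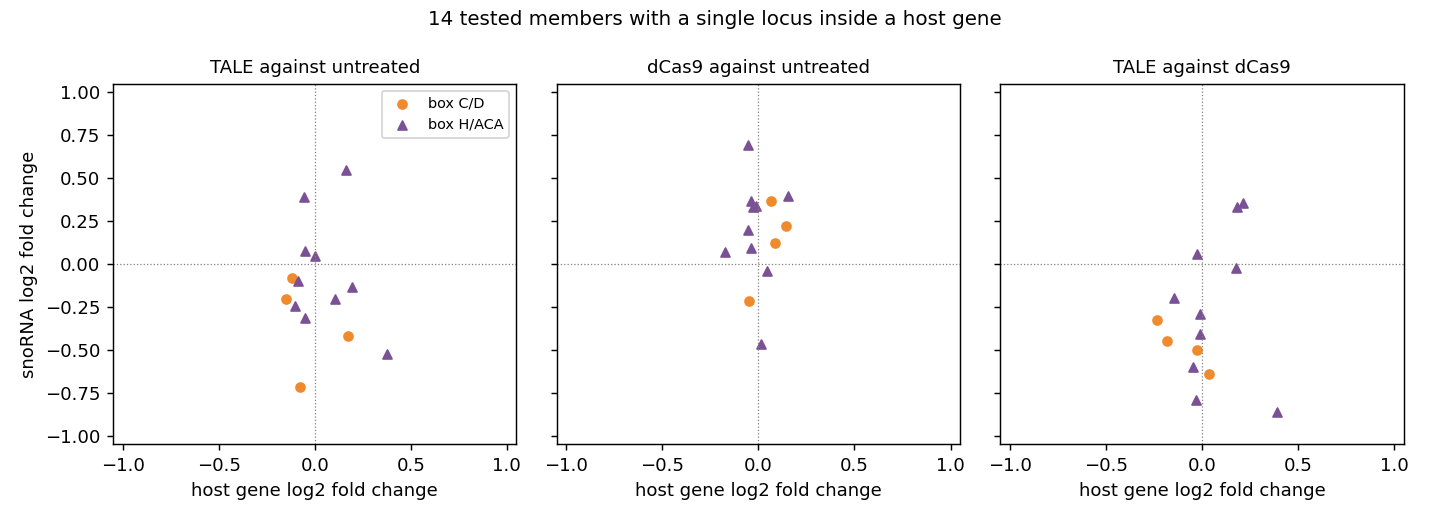
Log2 fold change of the host gene (horizontal) and of the snoRNA within it (vertical) for the 14 tested members with 1 locus and a host, circles for box C/D and triangles for box H/ACA, in the 3 comparisons. Host values stay between -0.23 and 0.39 while snoRNA values run from -0.86 to 0.69. The SEs of the snoRNA values are larger than those of the host values.

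The proteins of the snoRNA pathway showed no calls in any comparison. Of the box C/D core proteins, FBL is the methyltransferase fibrillarin, and NOP56, NOP58 and NHP2L1 build the particle around the RNA. All 4 were higher in TALE than in dCas9, with a median log2 fold change of 0.19, and the smallest p belonged to NOP56 (0.29, SE 0.126, edgeR adjusted p 0.747). NOP56, at 259 CPM the most abundant of them, had log2 fold changes of 0.06 and -0.24 in TALE and dCas9 against untreated. Of the box H/ACA core proteins, the pseudouridine synthase DKC1 was highest at 193 CPM, with log2 fold changes against untreated of 0.23 (SE 0.12, edgeR adjusted p 0.725) in TALE and 0.02 (SE 0.12, edgeR adjusted p 0.996) in dCas9.

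Among 13 assembly and transport factors, 3 were higher and 1 lower at an unadjusted p under 0.05 in TALE against untreated, where 2.86% of all genes were higher and 4.29% lower. In dCas9 against untreated 1 was higher, where 3.1% of genes were, and in TALE against dCas9 2 were higher, where 2.6% of genes were. RPAP3, part of the complex that loads core proteins, gave 0.33 (SE 0.128, edgeR adjusted p 0.596) in TALE and 0.30 (SE 0.129, edgeR adjusted p 0.744) in dCas9, and SHQ1, a chaperone of DKC1, 0.35 (SE 0.134, edgeR adjusted p 0.745) between TALE and dCas9. Of 7 processing and decay factors, DBR1, which opens intron lariats, gave 0.42 (SE 0.152, edgeR adjusted p 0.585) in TALE against untreated. Of 14 tested noncoding hosts (SNHG and GAS5 rows), 0 had an unadjusted p under 0.05 in any comparison. Of 13 tested SCARNA rows, 11 were lower in TALE than in untreated (median -0.43) and 10 lower than in dCas9 (median -0.52), with 3 and 4 of them at an unadjusted p under 0.05, where 4.29% and 3.79% of all genes were lower at that p. SCARNA10 had the smallest p in TALE against untreated (-0.78, SE 0.22, edgeR adjusted p 0.428) and SCARNA5 in TALE against dCas9 (-0.89, SE 0.243, edgeR adjusted p 0.511).

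Methylated DNA near the members was examined in the MeDIP counts per region. Of the 68 members with 1 locus, 31 had a region within 1 kb, 3 of them overlapping the gene, and of these 32 regions 24 passed the filter on low counts. None was called in TALE against untreated, dCas9 against untreated or TALE against dCas9 by edgeR, where 0.0%, 0.000947% and 0.000947% of 105652 regions were called. An unadjusted p under 0.05 was reached by 1, 3 and 2 regions, where 4.74%, 4.69% and 4.47% of all regions were. Median log2 fold changes were 0.01, 0.11 and 0.03.

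The region with the smallest p lay 730 bases from SNORD93 (chr7:22897035-22897501). It had 27, 22 and 33 counts in untreated, 33, 19 and 51 in TALE and 51, 55 and 35 in dCas9 replicates, or 9.30 ± 0.992 (SD, n = 3), 12.2 ± 4.18 (SD, n = 3) and 16.5 ± 3.18 (SD, n = 3) CPM. Scaled to library size the dCas9 libraries lay above the untreated ones, with a log2 fold change of 0.82 (SE 0.275, edgeR adjusted p 1.0). SNORD93 RNA itself had 56 counts in all, with 2, 2 and 4 in untreated and 11, 9 and 8 in dCas9 replicates. The rest lay in TALE, where the sum was also above that of untreated. It did not pass the filter on low counts and was not tested in the main fit. A region 862 bases from SNORA71B (chr20:37049879-37052869) was higher in both treated groups without overlap, with log2 fold changes of 0.37 (SE 0.172) in TALE and 0.35 (SE 0.171) in dCas9, both at an edgeR adjusted p of 1.0. Near SNORA23 (chr11:9450956-9451961) a log2 fold change of 0.83 was found (SE 0.393, edgeR adjusted p 1.0) in dCas9, on 7 to 27 counts per library.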

How the data were processed

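Counts per gene symbol (RNA) and per region (MeDIP), in 9 libraries each, were used as deposited, and 0 value columns were without a sample. Per the submitters' processing notes, STAR 2.3.0 (RNA), BWA 0.7.5 (MeDIP) and hg19 were used. Per the labels' protocols, cDNA was made with a kit for degraded RNA and then sheared. The counter, the annotation, the rule for multi-mapping reads and the use of strand are not given in the sources used here, and they decide the counts of snoRNAs that have copies or lie in hosts. Group differences came from edgeR 4.0.16 (R 4.3.3), with TMM factors, filterByExpr at a minimum of 10 counts, 1 model of 3 groups and the quasi-likelihood test, called at an adjusted p under 0.05. Tested on simulated counts for TALE against untreated (13568 genes), it recovered 88.7% of 2-fold and 98.9% of 4-fold changes, and it called 12 unchanged genes. Every simulated gene had the same biological coefficient of variation (0.128), and changed genes were drawn from the whole filtered table. These shares therefore do not measure recovery for the snoRNA members. DESeq2 1.42.0 was an alternative. Loci came from GENCODE on GRCh37, which matched 379 of 387 rows by symbol, and alignments from Biopython 1.88. Named members are any called, the 5 most abundant of each class, the smallest p in each direction and the extremes of variation. SNORA12, SNORA23, SNORA65, SNORD13, SNORD93, SNORA71B, SNORD104 and SNORD118 were named after their values were seen. The members and lists were chosen with earlier results of these data known.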

Additional observations from a re-analysis of the deposited data

How the results depend on the processing

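Alternatives changed tool, scaling, filter, libraries or window. Counts of called members stayed at 0 in TALE against dCas9 under each alternative run, and so did MeDIP regions near members in all 3 comparisons. In dCas9 against untreated 1 member, SNORA76, was called with DESeq2, 1 without the filter, 1 with only the 2 groups, and 0 to 1 with 1 library left out. In TALE against untreated it was 0 to 1 with 1 library left out (SNORD17, without TALE replicate 3).

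Over the whole table, calls in TALE against untreated were 3, with 9 by DESeq2 and 2 to 16 with 1 library left out (16 without TALE replicate 3). In dCas9 against untreated they were 4, with 9 without the filter, 29 by DESeq2, 8 with only the 2 groups and 2 to 10 with 1 library left out (10 without TALE replicate 3). In TALE against dCas9 they were 0, and 0 to 21 with 1 library left out (21 without dCas9 replicate 1). The cause was not tested.

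Libraries share only a replicate number: same-number deviations correlated at -0.234 to 0.0972 (RNA), and the own number had the highest correlation in 9 of 18 cases. With the replicate number as a block, calls in dCas9 against untreated were 2 over the whole table, and 0 members were called in each comparison.

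Of 586 refitted fold changes of named members, 559 kept direction and side of the threshold, 22 changed sign and 5 became calls. In TALE against untreated, SNORA11 gave 0.007 without the filter, and with 1 library left out ran from -0.19 to 0.0925, SNORA22 from -0.30 to 0.0841, SNORD15B from -0.30 to 0.10 and SNORD3A from -0.28 to 0.0352. In dCas9 against untreated, SNORA71A ran from -0.29 to 0.37, SNORA73B from -0.025 to 0.70, SNORA74 from -0.0802 to 0.17, SNORA80 from -0.28 to 0.47 and SNORD3D from -0.27 to 0.0221. In TALE against dCas9, SNORA50 ran from -0.10 to 0.49, SNORD3A from -0.0585 to 0.81 and SNORD3C from -0.036 to 0.29. Class log2 ratios kept their sign in box H/ACA under all 11 alternatives of each comparison and changed it in box C/D under 1 (TALE against untreated, 0.03 without TALE replicate 1), 1 (dCas9 against untreated, 0.11 without SNORD3A) and 2 (TALE against dCas9, -0.31 without SNORD3A and -0.06 without dCas9 replicate 3).

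With 3 libraries a group and a median of 41 (box H/ACA) or 30 (box C/D) counts per member over 9 libraries, depth limits most members. The 75 members below the filter entered only the fit without it, where SNORA76 alone was called, in dCas9 against untreated. There, of all 114 members, 6 (TALE against untreated), 8 (dCas9 against untreated) and 11 (TALE against dCas9) had an unadjusted p under 0.05. In that fit 1633 of all 20837 genes had such a p in TALE against untreated. In the filtered fit 3.1% of genes were higher and 2.83% lower at that p in dCas9 against untreated. In TALE against dCas9 these were 2.6% and 3.79%. Shares of the filtered fit cover a different set of genes, so they are no like background for the counts of 8 and 11 members.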
